A study of Mus musculus with 4 samples.

Results

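The proteasome subunit genes of mouse oocytes were followed in growing and fully grown oocytes, each with Dcaf13 intact or deleted. Members were taken by symbol, as every gene named Psma, Psmb, Psmc, Psmd, Psme, Psmf or Psmg followed by a digit. This gave 49 of the 23235 genes in the deposited table, and no symbol of the pattern had to be left out as a pseudogene. Of the 49, 48 encode subunits, assembly chaperones, activators or an inhibitor of the proteasome. The remaining gene, Psmc3ip, carries the name of a proteasome ATPase that its product binds, but encodes a protein of homologous pairing in meiosis, and is described only where counts include it.

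The proteasome degrades proteins that have been marked with ubiquitin. Its barrel, the 20S core, is a stack of rings of alpha and beta subunits, and the beta subunits Psmb5, Psmb6 and Psmb7 cut the substrate. The 19S cap recognises ubiquitin, unfolds the substrate with a ring of ATPases (Psmc genes) and threads it through the pore of that ring into the barrel. Non-ATPase subunits (Psmd genes) make up the lid of the cap and the rest of its base. Inducible beta subunits (Psmb8, Psmb9, Psmb10) replace the constitutive ones in the immunoproteasome of immune cells and of cells exposed to interferon. In oocytes the proteasome is best known for the removal of cyclin B and securin in meiosis and of maternal proteins after fertilization. DCAF13, the protein whose gene was deleted, serves CRL4, a ubiquitin ligase, by binding the proteins to be marked.

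The 4 groups held 1 library of 10 oocytes each, all on the C57B6 background. The control groups were Dcaf13fl/fl, and the deletion groups were Dcaf13fl/fl;Gdf9-Cre, in which the Gdf9 promoter drives Cre in oocytes, so both carry the floxed alleles. Growing oocytes came from 14-day-old mice without hormone treatment. Fully grown oocytes came from 23-day-old mice, 48 h after injection of 5 IU of PMSG, a gonadotropin that stimulates follicle growth. Stage, age and PMSG therefore cannot be told apart. The number of mice behind each library is not given in the sources used here. There were no replicates, so each value describes 1 library and nothing was tested. Where 4 values follow each other, they stand for growing control and growing deletion, then fully grown control and fully grown deletion. Differences are given in log2(FPKM + 1), where FPKM is a level per transcript length and scaled to the mapped fragments of the library. A gene was called higher or lower where it differed by at least 1 on this scale and 1 of the 2 libraries held 5 FPKM or more. This size rule compares libraries, not conditions.

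Dcaf13 stood at 96.1, 38.9, 160.2 and 64.0 FPKM, so its row was lower in both deletion libraries but not at 0. The 12 oocyte markers were all at 5 FPKM or more, with medians per library between 1540 and 1853 FPKM. Of 7 markers of theca and stroma and 5 of erythrocytes none reached 1 FPKM, and 4 globin genes were at 0 in all libraries. Of 7 leukocyte markers 2 reached 1 FPKM, Cd74 was at 0, and the list summed to between 2.78 and 4.98 FPKM. The 10 granulosa markers summed to between 17.3 and 34.2 FPKM, and the 4 endothelial markers to between 13.3 and 20.8, with Cdh5 at 0. Relative depth, read from the value of single reads among low genes, was 1.04, 0.99 and 1.11 times the growing control for the other libraries in that order. The absolute depth is unknown, so no counting error can be given.

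The symbols and values of the deposited table run in different sort orders and were paired anew, which moved the values of all 49 genes by 2 rows. As deposited, the row named Psma6 held 0.203 FPKM in the growing control, Psmb6 0.297 and Psmb7 0.160, although the 20S core needs these subunits. After re-pairing these rows held 266, 389 and 382 FPKM, and the low values belonged to Psma8, Psmb8 and Psmb9. With the move of 2 rows, 30 of 31 core subunits were at 5 FPKM or more in all 4 libraries, against 25 as deposited and at most 27 for any other move of up to 6 rows. The pairing is an inference from these values and was not checked with the submitters. High levels of core genes and low levels of tissue-specific genes, as given below, are therefore no separate support for it.

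Proteasome genes were abundant in all 4 libraries, with a steep order among them. Members at 5 FPKM or more numbered 43, 44, 41 and 42, which is most of the 49, while 32.1%, 32.8%, 30.4% and 30.6% of all genes reached that level. The median member stood at 93.3, 98.6, 93.1 and 92.7 FPKM in the same order. The members together held 1.23%, 1.25%, 1.37% and 1.36% of summed FPKM. The order of the 49 levels was nearly the same in every library, with Spearman's rho between 0.967 and 0.989 over 49 genes for the 6 pairs of libraries, which share gene lengths and protocol.

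**Figure D1:**
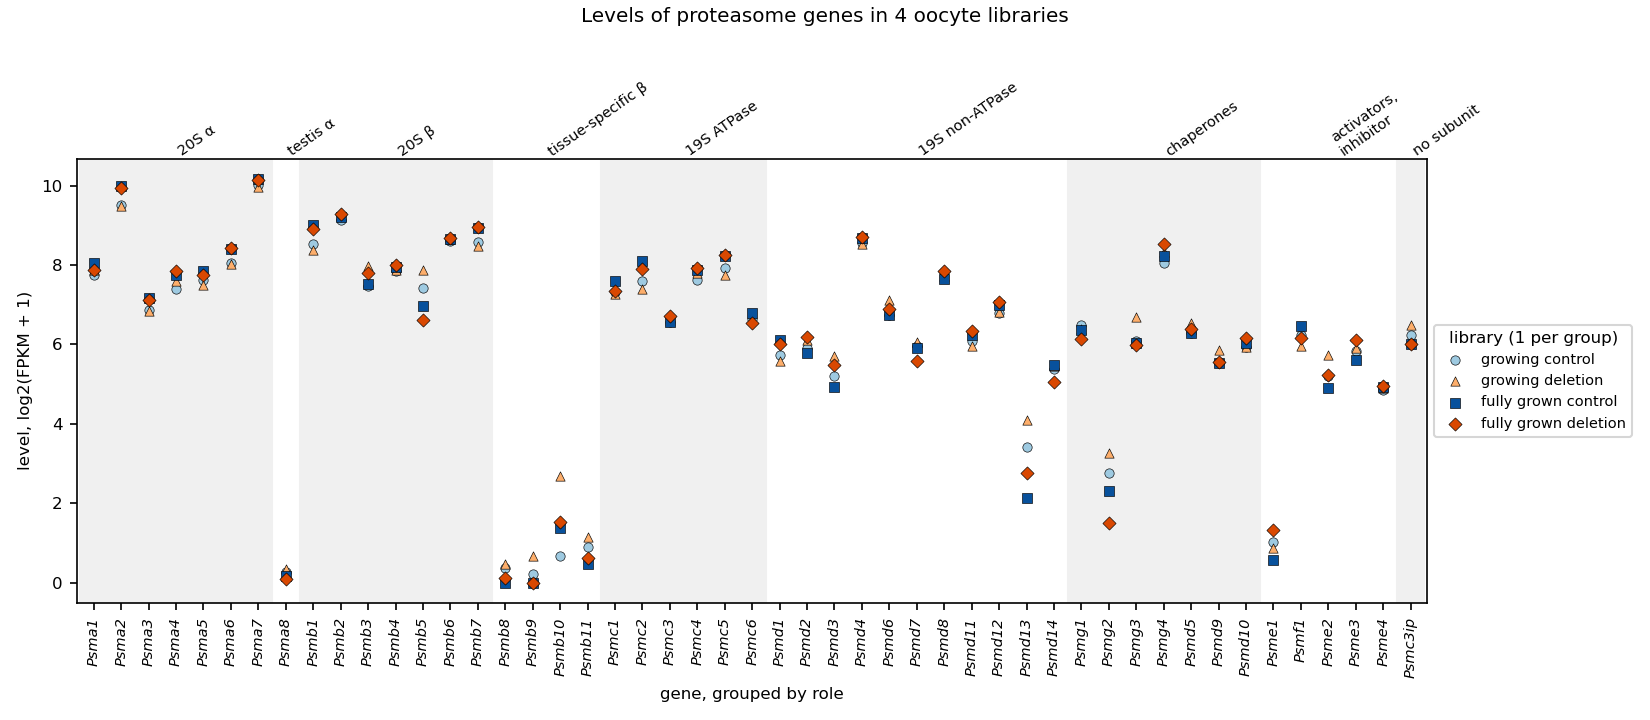
Level of each of the 49 genes as log2(FPKM + 1), grouped by role, with 1 point per library. The constitutive 20S and 19S genes lie high in all libraries except Psmd13, and the tissue-specific beta genes, Psma8 and Psme1 lie near the bottom.

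The 7 alpha ring genes, whose products form the outer rings and the gate of the barrel, had a median of the mean levels of 238 FPKM. Psma7 was the most abundant member of all, at 1029.7, 1005.4, 1157 and 1138 FPKM. Psma2 followed at 733, 714, 1012 and 977 FPKM. The lowest of the ring was Psma3, at 115, 115, 144 and 138 FPKM, 8.46-fold under Psma7 by mean level. All 3 were higher in value in both fully grown libraries than in both growing ones, although their proteins enter the ring in equal number.

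The 7 constitutive beta ring genes had a median of the mean levels of 402 FPKM. Psmb2, a beta subunit without a catalytic site, led at 565, 613, 597 and 623 FPKM. The catalytic subunit of caspase-like activity, Psmb6, varied least among them, at 389, 401, 406 and 409.8 FPKM. Psmb7, of trypsin-like activity, stood at 382, 354, 492 and 497 FPKM. Psmb5, of chymotrypsin-like activity, was the lowest of the ring and the most variable, at 172, 234, 124 and 97.2 FPKM. It was thus high in both growing and low in both fully grown libraries, opposite to Psmb7. Psmb1, another non-catalytic subunit, stood at 371, 334, 512 and 479 FPKM and was high in both fully grown libraries.

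After re-pairing, the tissue-specific subunits were at or near 0 in oocytes, in every library and at every catalytic position, with 1 exception. Low levels of such genes were among the values from which the pairing was inferred, so this is not an independent result. Psmb8, the inducible counterpart of Psmb5, was at 0.297, 0.376, 0 and 0.0907 FPKM. Psmb9, that of Psmb6, was at 0.160 and 0.605 FPKM in the growing control and deletion and listed at 0 in both fully grown libraries. Psmb11, the thymus form, was at 0.859, 1.22, 0.379 and 0.545 FPKM. The testis alpha subunit gene Psma8 was at 0.203, 0.278, 0.124 and 0.0694 FPKM, or between 0.0061% and 0.0276% of its sum with Psma7. The exception was Psmb10, the counterpart of Psmb7, at 0.599, 5.47, 1.61 and 1.90 FPKM. Only the growing deletion library stood out, and there Psmb10 made up 1.52% of its sum with Psmb7, against 0.157%, 0.327% and 0.381% in the others.

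In the 19S cap the 6 ATPase genes lay within a 2.74-fold range of mean level, from Psmc3 to Psmc5. Psmc5 stood at 244, 213, 302 and 306 FPKM and Psmc3 at 93.3, 97.7, 93.1 and 105 FPKM. Psmc2 stood at 192, 169, 272 and 238 FPKM. Both Psmc5 and Psmc2 were higher in value in the fully grown libraries, while the libraries of Psmc3 lay close together.

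The 11 non-ATPase genes spread over a 44.8-fold range. Psmd4, which encodes a ubiquitin receptor, was the most abundant at 375, 372, 408 and 415 FPKM. Psmd14, the deubiquitinase of the lid, stood at 40.6, 43.1, 43.6 and 32.2 FPKM. Psmd3, of the lid, stood at 35.6, 51.0, 29.2 and 43.6 FPKM, higher in value in both deletion libraries than in both controls. Psmd13, a structural subunit of the lid, was the outlier of the cap at 9.66, 16.3, 3.35 and 5.76 FPKM. It was the single core subunit under 5 FPKM in any library, and lay far under its lid neighbour Psmd12, at 110 to 132 FPKM. The median level of the 19S genes, Psmc and Psmd together, was 99.1, 98.6, 106 and 105 FPKM, against 248, 257, 303 and 299.9 FPKM for the 14 constitutive 20S genes, a ratio between 2.50 and 2.85.

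Among the 7 assembly chaperones, which help build the alpha ring (Psmg genes) and the base of the cap (Psmd5, Psmd9, Psmd10), Psmg4 was the most abundant at 263, 322, 299 and 370.2 FPKM. Psmg2, whose product acts as a pair with that of Psmg1, was the lowest at 5.79, 8.58, 3.99 and 1.84 FPKM, although Psmg1 stood at 69.6 to 89.2 FPKM. Of the activators, Psme1 was near 1 FPKM in every library (1.01, 0.843, 0.483 and 1.49), while Psme2, with whose product it forms a ring, was at 28.9 to 52.2 FPKM. Psme2 has a near-identical gene copy, and how reads with several matches were handled is not given in the sources used here, so its level is uncertain. The nuclear activator gene Psme3 and the large activator gene Psme4 stood at 47.8 to 68.7 and 27.8 to 30.2 FPKM. The inhibitor and adaptor gene Psmf1 stood at 74.0, 61.3, 87.7 and 70.1 FPKM, lower in value in each deletion library than in its control.

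The first contrast asked how proteasome genes stand in growing oocytes in which Dcaf13 was deleted. The proteasome genes as a set lay where other genes lay, and Psmb10 alone was called. Of the 49 genes 44 reached the minimum, 26 of them (59.1%) were above control, against 58.5% of all 8010 genes at the minimum, and their median difference was 0.07, against 0.08 for all genes. Psmb10 was higher by 2.02, 9.13-fold in FPKM, and no member was lower. Psmb10 reached the minimum only through the growing deletion library, at 5.47 FPKM, and its ratio rests on a control value of 0.599 FPKM. Over all genes 2.62% were higher and 2.51% lower, so 1 in 44 members is near the background. The next largest differences were those of Psmd13 (0.70), Psmg3 (0.62), Psme2 (0.52), Psmb3 and Psmd3 (0.51 each), all under the size rule. At the other end stood Psmf1 (-0.27) and Psmc5 (-0.19). By role, 2 of 7 alpha ring genes, 5 of 7 beta ring genes, 2 of 6 ATPases, 7 of 11 non-ATPases and 5 of 7 chaperones were above control. The beta ring's side depends on the setting: its median was 0.05 here, while 3 of 7 were above both after median-ratio rescaling (-0.0039) and without the trend in GC content and length (-0.013).

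Psmb10 lies on chromosome 8, minus strand, from 108459628 to 108462292 (mm9), and overlaps no other gene of the deposited annotation. Markers of leukocytes, the cells in which the immunoproteasome is constitutive, also had their highest sum in the growing deletion library, at 4.98 FPKM against 2.78 to 3.50 in the others, mainly from Cd68 (3.55 FPKM). Laptm5, the next most abundant, was at 1.36 FPKM in the growing deletion library but highest in the fully grown deletion library, at 1.88 FPKM. Cd68, Csf1r (0.0655 FPKM) and Ptprc (0.0087 FPKM) had their highest value in the growing deletion library. Lyz2, Cd74 and Coro1a were at 0 there. The part of such cells in the Psmb10 value was not tested. In a bulk library, more cells of a type and more RNA per cell cannot be told apart. Of the 11 genes on the list of antigen processing and interferon response with a value above 0, 9 had their highest value in the growing deletion library too, beside 38.0% of all genes, a count made after the values were seen. Most of these were low there, such as Tap1 at 0.338, Irf7 at 0.357 and Nlrc5 at 0.0221 FPKM.

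At the end of growth the same contrast was made in fully grown oocytes. No member was called in either direction, where 1.08% of all 7413 genes were higher and 1.09% lower. With 42 members at the minimum, 26 (61.9%) were above control, against 55.0% of all genes, and the median difference was 0.02, against 0.04 for all genes. After rescaling of the libraries by their median ratio 15 of 42 (35.7%) were above control, against 47.3% of all genes, so the side on which the set lies depends on the scaling. The largest differences were those of Psmd13 (0.64) and Psmd3 (0.56) above and of Psmd14 (-0.43) and Psmb5 (-0.34) below.

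These deletion comparisons share no library. Of 42 members at the minimum at both stages, 19 (45.2%) were above control at both, against 39.2% of 7188 genes, and 11 (26.2%) below at both, against 27.8%. After median-ratio rescaling 11 (26.2%) were above at both, against 32.2% of genes, and 17 (40.5%) below at both, against 34.1%. Among members above at both, Psmd13 and Psmd3, both of the 19S lid, differed by 0.70 and 0.64 (Psmd13) and by 0.51 and 0.56 (Psmd3). Without the trend in GC content and length Psmd13 was at 0.63 and 0.56, while Psmd3, the member with the highest GC content, was at 0.27 and 0.31, under Psme2 at 0.44 and 0.37. Psmb5 changed side, at 0.44 in growing and -0.34 in fully grown oocytes, as did Psmg2, at 0.50 and, under the minimum, -0.81. The alpha ring lay slightly below control at both stages, with 5 of 7 genes below and medians of -0.03 and -0.05. With the trend in GC content and length taken out, these medians were 0.19 and 0.13, with 5 of 7 above at each stage, so the ring's side depends on this step. The medians were then the values of Psma2 and Psma3. Their longest transcripts, used for the trend, have 2911 and 2846 bases, against 1042 to 1239 in the rest of the ring. Whether another choice of transcript would change the side was not tested.

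**Figure D2:**
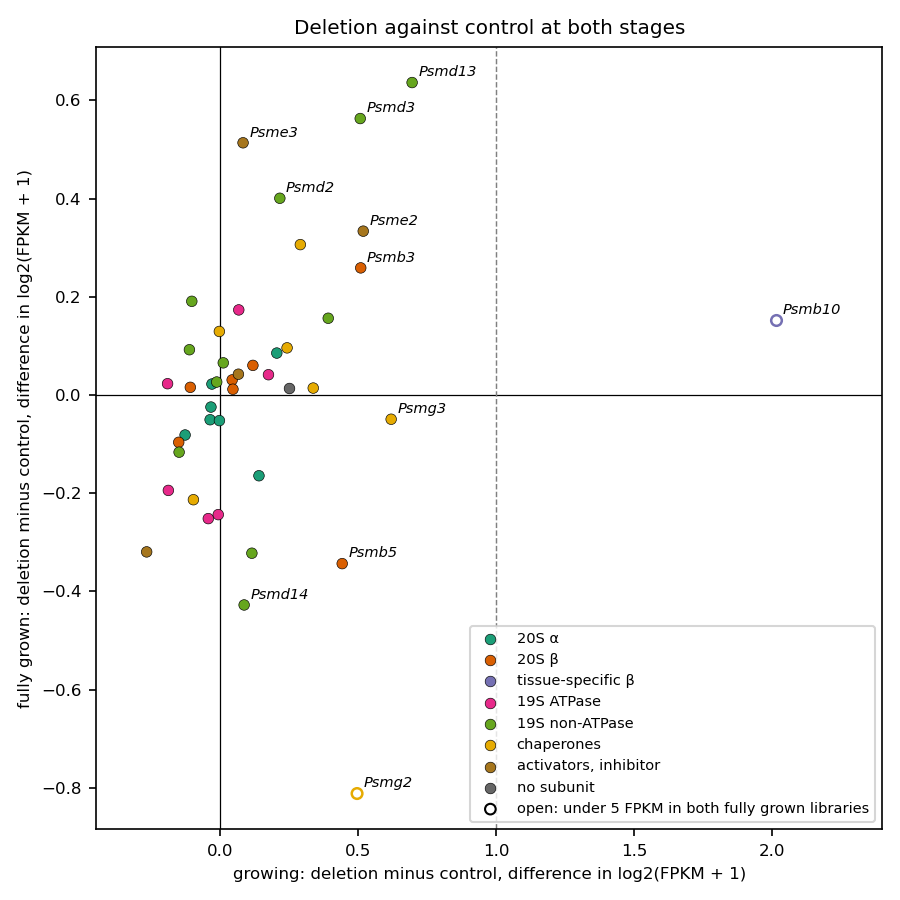
Difference between deletion and control in log2(FPKM + 1) for each member at 5 FPKM or more in a growing library, in growing oocytes (x axis) and fully grown oocytes (y axis), coloured by role, with open points for members under 5 FPKM in both fully grown libraries. The dashed line marks the size rule, which Psmb10 passes in growing oocytes (2.02). Most other members lie close to 0 on both axes.

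The comparison of fully grown with growing oocytes, made in each genotype, is called growth here for short. It holds the differences in age and PMSG as well. In controls the core subunits were mostly above their growing value, by amounts under the size rule, on a background in which most genes were below. Of 43 members at the minimum 29 (67.4%) were above, against 43.9% of all 7661 genes, with a median of 0.11 against -0.06. All 7 alpha ring genes were above (0.17 to 0.47), as were 6 of 7 beta ring genes, 5 of 6 ATPases and 6 of 11 non-ATPases, while 3 of 7 chaperones were. The largest differences were those of Psmc2 (0.50) and Psma2 (0.47). Psmd13 was lower by the size rule (-1.29), 1 of 43 members (2.33%) beside 3.07% of all genes, and Psmb5 (-0.47) stood next. No member was higher, beside 1.11% of all genes.

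In deletion oocytes, whose libraries are others, the core subunits had a like order, while 4 members were lower. Of 44 members at the minimum 27 (61.4%) were above their growing value, against 44.1% of all 7957 genes, with a median of 0.09 against -0.07. The alpha ring had 6 of 7 above, all but Psma1, the beta ring 5 of 7, the ATPases 5 of 6, the non-ATPases 6 of 11 and the chaperones 2 of 7. The largest differences were those of Psmc5 and Psmb1 (0.52 each). Psmg2 (-1.75), Psmd13 (-1.35), Psmb5 (-1.26) and Psmb10 (-1.16) were lower by the size rule, which is 9.09% of the 44 and near the background of 8.75%. No member was higher, beside 2.7% of all genes. All 4 had their highest level in the growing deletion library, which is the reference of this comparison.

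Above their growing value in both genotypes were 23 of 43 members (53.5%), against 32.0% of 7383 genes, and below in both were 10 (23.3%), against 42.0%. The 23 included 6 alpha ring genes (all but Psma1), the beta ring genes Psmb1, Psmb2, Psmb4, Psmb6 and Psmb7, and the ATPases Psmc1, Psmc2, Psmc4 and Psmc5. The 10 were Psmb5, Psmd3, Psmd7, Psmd13, the chaperones Psmd5, Psmg1, Psmg2 and Psmg3, the activator gene Psme2 and Psmc3ip. By role, 11 of 14 genes of the 20S core were above in both and 1, Psmb5, below in both. Of 7 chaperones 2, Psmd10 and Psmg4, were above in both and 4 below in both. Without the trend in GC content and length 9 of the 14 core genes were above in both and 3 below in both (Psmb2, Psmb3 and Psmb5), so that Psmb2 changed side. No chaperone was then above in both and 3 were below in both, Psmd5 being at 0.0207 in controls. Psmd3 also changed side, to 0.04 in controls and 0.14 in the deletion. Of all members 21 of 43 (48.8%) were then above in both, against 35.9% of genes, and 12 (27.9%) below in both, against 36.6%. FPKM is a share of each library, so these values do not give RNA per oocyte.

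**Figure D3:**
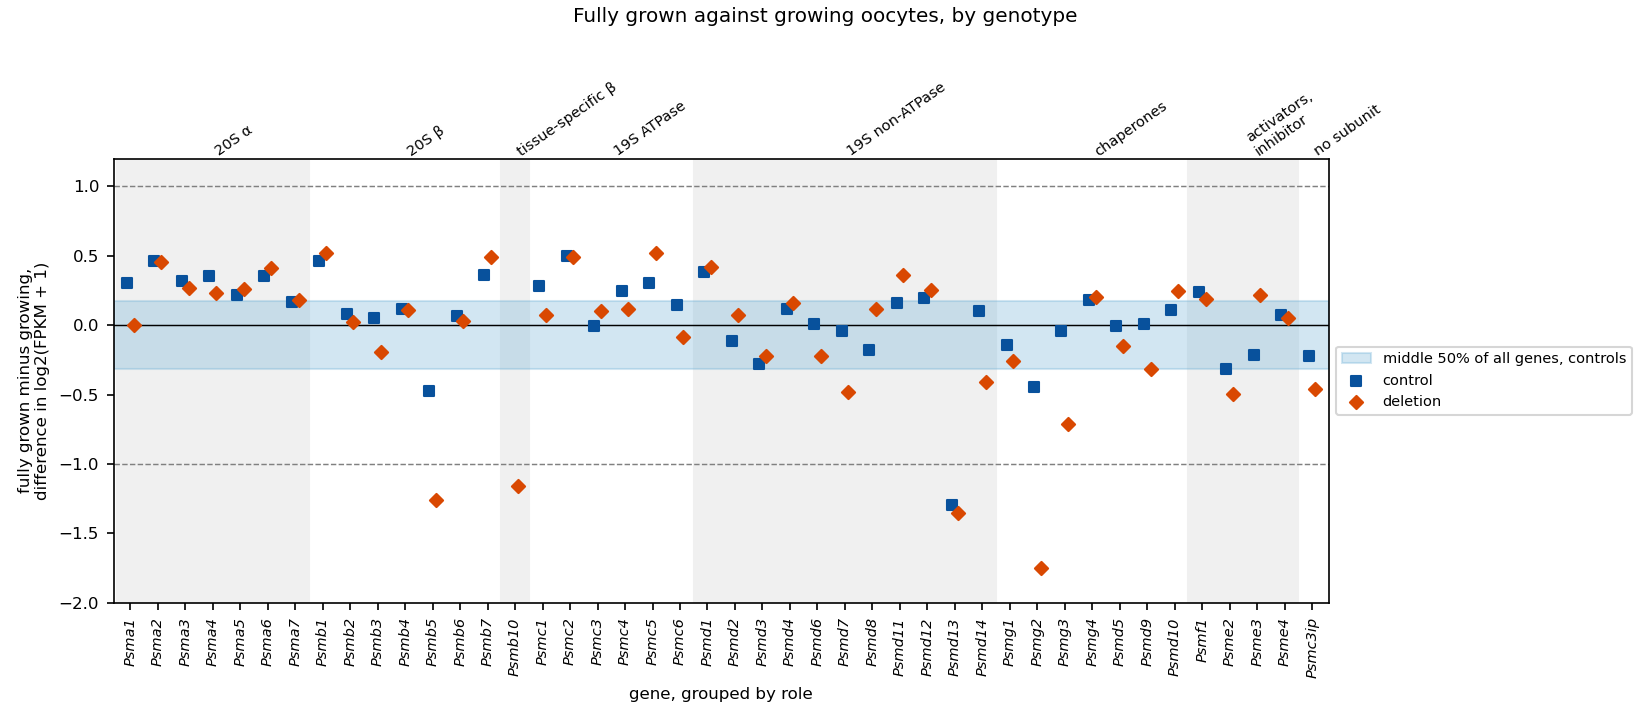
Difference between fully grown and growing oocytes in log2(FPKM + 1) for each member, in control (blue squares) and deletion oocytes (orange diamonds), where 1 of the 2 libraries had 5 FPKM or more. The band holds the middle 50% of all genes in controls and the dashed lines mark the size rule. The alpha ring genes lie at or above 0, and Psmd13, Psmb5, Psmg2 and Psmb10 lie lowest.

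Base composition moved with the growth differences. Across members the difference went with GC content of the transcript, with Spearman's rho of -0.48 over 43 genes in controls and -0.37 over 44 in the deletion, beside -0.31 and -0.24 over all genes. In the deletion comparisons the sign was opposite, at 0.40 over 44 members in growing and 0.30 over 42 in fully grown oocytes, beside 0.37 and 0.41 over all genes. Members share each library's amplification and sequencing in these values. With the trend in GC content and transcript length taken out together, the alpha ring kept 7 of 7 genes above in controls. Its median there was 0.10 in place of 0.32, and 6 of 7 were above in the deletion. The parts of GC content and of length were not separated. The ATPases had 6 of 6 and 5 of 6 above. Of all members, 26 of 43 were above in controls (60.5%, against 47.5% of all genes). The beta ring had 3 of 7 above in controls, with a median of -0.08 in place of 0.08, so that its side depends on this step. Psmb10 remained higher in growing deletion oocytes (1.84) but was no longer lower over growth in the deletion (-0.92). The other calls stayed: Psmd13 at -1.14 and -1.16, Psmb5 at -1.13 and Psmg2 at -1.82.

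The 4 called members differ in how firmly their levels can be read. Psmb5 (chromosome 14, minus strand, 55232957 to 55236832, mm9) was called at a high level, in the 97.2 to 234 FPKM range, and would be called with a minimum of 20 FPKM as well. Its annotated span holds the microRNA gene Mir686, at 0.0013 FPKM or less. Psmd13 (chromosome 7, plus strand, 148068293 to 148084541) and Psmg2 (chromosome 18, plus strand, 67801253 to 67813816) overlap no other gene of the deposited annotation, but with Psmb10 they lay under 20 FPKM in every library and would not be called with that minimum. For Psmd13 the order of libraries was the same at both stages, deletion above control, and the same in both genotypes, growing above fully grown. The part of low counts in these differences was not tested. With a looser size rule of 1.5-fold, Psmd13 was higher in both deletion comparisons. The count then was 3 higher and 0 lower in growing oocytes (Psmb10, Psmd13 and Psmg3), beside 10.1% and 6.84% of all genes. In fully grown oocytes it was 1 higher and 0 lower, beside 6.29% and 4.9%. Over growth it was 0 higher and 1 lower in controls, beside 3.6% and 10.7%, and 0 higher and 5 lower in the deletion (Psmg3 added), beside 7.96% and 19.2%.

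**Figure D4:**
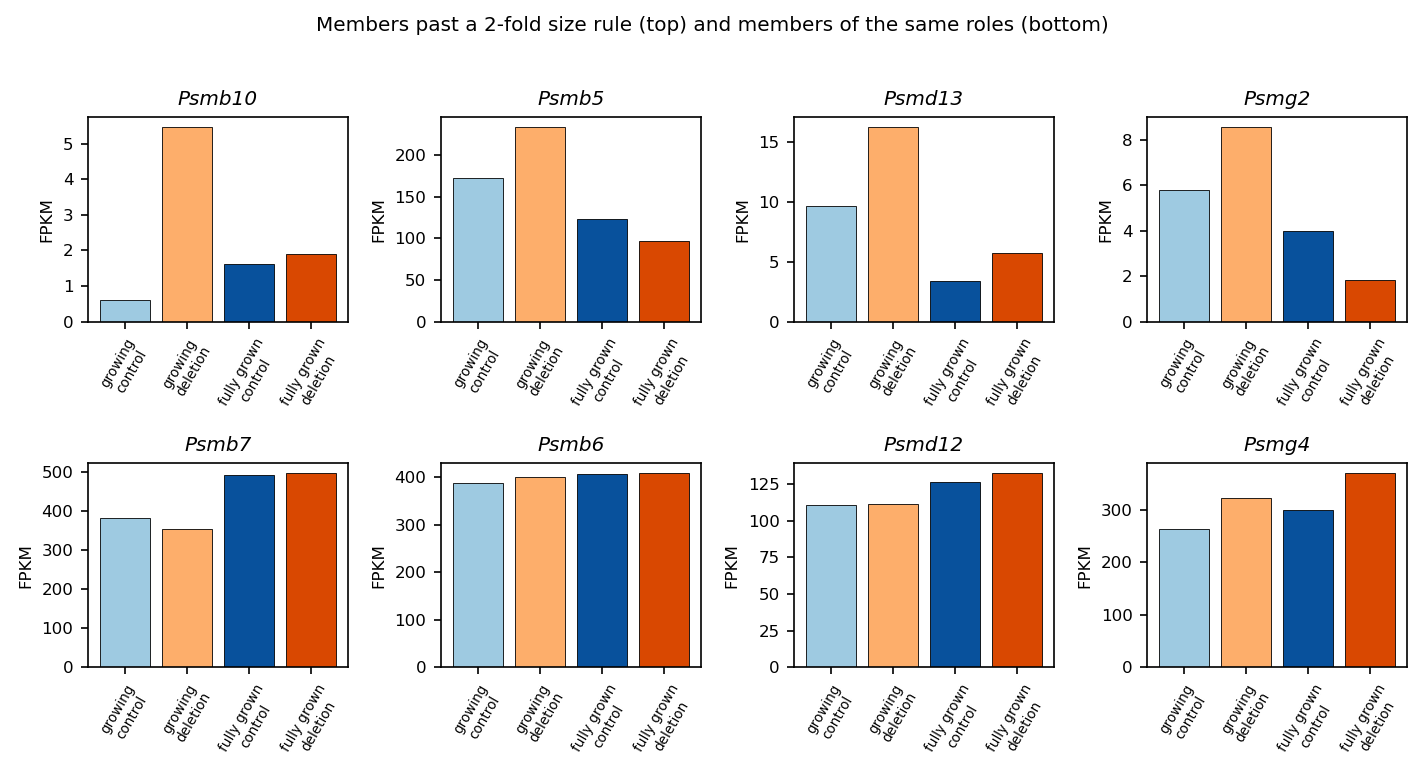
FPKM in each of the 4 libraries (1 bar per library, axes from 0) for the members past the size rule in any comparison (top row) and for other members (bottom row). Under Psmb10 stands Psmb7, its constitutive counterpart, which has another role. Under Psmb5, Psmd13 and Psmg2 stand Psmb6, Psmd12 and Psmg4, each of the same role. Psmb10 stands out in the growing deletion library only, Psmb5, Psmd13 and Psmg2 are higher in both growing than in both fully grown libraries, and Psmb6 and Psmd12 vary little.

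Genes around the proteasome were read from fixed lists. The share of all genes called lay between 1.08% and 8.75%, depending on comparison and direction, so a lack of calls sets no list of this size apart. Of 12 proteasome-associated genes without a Psm symbol 11 were in the table and at the minimum in every comparison, and none was past the size rule. The most abundant were Shfm1, a small subunit of the lid, at 748, 777, 914 and 1079.5 FPKM, and the ubiquitin receptor gene Adrm1 at 231, 278, 221 and 262 FPKM. Shfm1 was above its growing value in both genotypes (0.29 and 0.47), as most core genes were. None of the 8 genes of transcription control was called. Nfe2l1, whose product drives proteasome genes when proteasome activity is short, stood at 21.4, 20.5, 17.8 and 23.1 FPKM. The related Nfe2l2, at 11.5, 7.59, 11.5 and 6.23 FPKM, was below control at both stages (-0.54 and -0.79), as were 27.8% of 7188 genes. Nfyc, the most abundant of the list, stood at 134.9, 124.3, 127.1 and 126.7 FPKM. None of the 6 genes of ubiquitin and its activation was called, with Ubb at 2276 to 2760.2 FPKM. Of 10 shuttle and extraction factors 7 reached the minimum and none was called, and the segregase gene Vcp stood at 45.6, 69.7, 35.6 and 42.1 FPKM.

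Of the 12 genes of antigen processing and interferon response, 3 reached the minimum, Irf1 (102 to 122 FPKM), B2m (52.4 to 66.5 FPKM) and H2-K1. H2-K1, a class I histocompatibility gene, stood at 8.82, 17.2, 5.64 and 13.7 FPKM, above control in both deletion libraries. It was past the size rule in fully grown oocytes (1.15), beside 1.08% of all genes higher there, and lay under 20 FPKM in every library. H2-D1, on the same list but under the minimum, stood at 0.730, 2.02, 1.08 and 1.07 FPKM. Among 5 genes of the CRL4 ligase Dcaf13, the deleted gene, was lower in both deletion comparisons, beside 2.51% and 1.09% of all genes. Cul4a, at 9.25, 14.2, 4.95 and 5.53 FPKM, was lower over growth in the deletion (-1.22), beside 8.75% of all genes.

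Promoter windows from RefSeq (GRCm38.p6, 250 bases before to 50 after the start site) were found for 41 of the 49 genes. They were searched on both strands for TGACNNNGC, the element bound by Nfe2l1 and Nfe2l2, for CCAAT and for TTCNNNGAA. TGACNNNGC was present in 6 of 41 member genes (14.6%), beside 14.0% of all 27025 genes with a window and 17.3% of the 5920 at 5 FPKM or more in 1 library. CCAAT was present in 15 of 41 (36.6%), beside 41.1% and 44.8%, and TTCNNNGAA in 3 (7.32%), beside 9.55% and 7.94%. The shares in members were thus near those of other genes for each of these words. The windows with TGACNNNGC were those of Psmb5, Psmb6, Psmc6, Psmd9, Psmd12 and Psme4.

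Below are the 250 bases before the start site of the called members with a window, and of Psmb6 because it holds the same element as Psmb5 while its level hardly varied. The element is in capitals, at -47 to -39 in Psmb5 and -9 to -1 in Psmb6, and the windows of Psmb10 and Psmd13 hold none. All read 5′ to 3′ on the gene's strand: Psmb5 is chr14:54617996-54618245 (minus), Psmb6 chr11:70525107-70525356 (plus), Psmb10 chr8:105938393-105938642 (minus) and Psmd13 chr7:140882144-140882393 (plus).
Psmb5: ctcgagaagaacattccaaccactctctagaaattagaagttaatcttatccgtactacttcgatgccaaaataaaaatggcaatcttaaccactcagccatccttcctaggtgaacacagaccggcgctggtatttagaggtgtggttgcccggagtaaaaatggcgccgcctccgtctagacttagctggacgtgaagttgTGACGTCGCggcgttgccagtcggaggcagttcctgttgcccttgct
Psmb6: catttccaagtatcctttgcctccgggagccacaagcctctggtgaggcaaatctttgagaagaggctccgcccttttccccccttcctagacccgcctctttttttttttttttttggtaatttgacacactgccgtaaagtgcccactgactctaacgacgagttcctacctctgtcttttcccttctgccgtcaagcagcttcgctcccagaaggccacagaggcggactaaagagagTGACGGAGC
Psmb10: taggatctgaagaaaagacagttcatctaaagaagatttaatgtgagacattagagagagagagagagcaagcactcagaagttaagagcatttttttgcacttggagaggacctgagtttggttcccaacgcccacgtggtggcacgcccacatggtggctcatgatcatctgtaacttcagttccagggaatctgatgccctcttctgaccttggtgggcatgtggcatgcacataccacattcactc
Psmd13: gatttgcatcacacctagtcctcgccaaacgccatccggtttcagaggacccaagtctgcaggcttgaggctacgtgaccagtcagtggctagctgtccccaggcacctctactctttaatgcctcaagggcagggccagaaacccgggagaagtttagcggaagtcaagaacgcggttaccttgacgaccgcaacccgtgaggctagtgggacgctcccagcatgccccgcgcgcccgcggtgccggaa
A match of letters is a description of the sequence and shows no binding. The matches differ in their free letters, TGACGTCGC in Psmb5 and TGACGGAGC in Psmb6, and in their position. Whether either match bears on the level of its gene was not tested.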

How the data were processed

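The deposited tables give FPKM per gene symbol, computed by the authors for 1 library of 10 oocytes per group from polyadenylated RNA with Smart-seq2, per the labels' protocols. Cufflinks 2.2.1, Bowtie2 2.1.0, TopHat2 2.0.11, CASAVA 1.8 and the mm9 build are listed, with no roles, per the submitters' processing notes. Strand and the handling of multiple matches were not given in the sources used here. Values in the 4 per-sample tables were identical to the whole table.

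Symbols in byte order were paired with the value rows in file order, which gave 19122 of 23235 rows another symbol. Differences in log2(FPKM + 1) were computed over the whole table with Python 3.11.15, numpy 2.4.6 and pandas 2.3.3, and checked on simulated data. GC content and length came from the longest protein-coding GENCODE M21 transcript of each gene, or else its longest transcript, and were known for all 49 members. The trend was a quadratic surface in GC content and log2 length. Members are described by counts and medians beside all genes, with no test. Values in all libraries are given for called members, tissue-specific subunits and their counterparts, the extremes of each role group, and the 2 highest and 2 lowest differences per comparison. Members and lists were chosen with earlier results of these data known. Starts of genes were raised by 1 to count from 1.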

Additional observations from a re-analysis of the deposited data

How the results depend on the processing

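With 1 library per group neither replicate error nor the depth behind a value is known, and no library could be left out. No paired analysis was possible because each group held 1 library and no test was run. Counts and medians were recomputed with a pseudocount of 0.1, no minimum, minimums of 1 and 20 FPKM, median-ratio rescaling, removal of the GC and length trend and the deposited pairing, and counts of calls also with a size rule of 1.5-fold. The median over all members moved by less than 0.1 in each. For the deposited pairing this was nearly fixed in advance, since a move of 2 rows leaves mostly the same values in the set. Without the GC and length trend medians of several role groups moved by more, in some comparisons only. In growing deletion oocytes that of the alpha ring went from -0.03 to 0.19. Over growth in controls that of the beta ring went from 0.08 to -0.08. Over growth in the deletion that of the ATPases went from 0.11 to 0.30, while that of the alpha ring hardly moved (0.26 to 0.23). With the minimum of 20 FPKM no member was higher in growing deletion oocytes (0 in place of 1), none was lower over growth in controls (0 in place of 1) and 1 in place of 4 was lower over growth in the deletion, since Psmb10, Psmd13 and Psmg2 fall under it. With 1.5-fold, 3 members were higher in growing deletion and 1 in fully grown deletion oocytes. Median-ratio rescaling left 15 in place of 26 members above control in fully grown oocytes. With the deposited pairing Psmb10 was at 0.12 in growing deletion oocytes, and Psma8 was called in its place (2.02). Over growth in controls Psmd11 was called in place of Psmd13. Over growth in the deletion 5 members were past the size rule, Psma8, Psmb3, Psmd11, Psmf1 and Psmg4. The rows of the members called lower there in the main setting gave 0.0224 (Psmb10), 0.49 (Psmb5), 0.0711 (Psmd13) and 0.20 (Psmg2). Those rows hold the values of other members. Without the GC and length trend Psmb10 was at -0.92 over growth in the deletion. The protein identities planned for family members were not run.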
